A study of Schizosaccharomyces pombe with 8 samples.

Results

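Fission yeast cultures that had been returned to 30C for 1 h after a heat shock were compared with cultures at the end of that shock, 1 h at 43C. The comparison takes 4 of the 8 arrays of the series, selected by their culture labels: opi10- and opi10+ at 1 h of recovery, and opi10- and opi10+ at 43C. Schizosaccharomyces pombe was grown in liquid Edinburgh Minimal Medium to mid-log phase at 30C, and 1 array was hybridised for each strain and condition. The strains are named for the state of opi10, which encodes the S. pombe protein of the Hikeshi family, a nuclear import carrier of HSP70 chaperones in heat-stressed human cells. The labels give the genotypes as opi10- and opi10+ and name no other allele, marker or parent strain. No probe set on the array was paired with opi10, so the arrays did not check the strain labels. The 4 other arrays, of the same strains before heat and after 3 h of recovery, entered the model fit, and those before heat give the level from which each gene started.

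Cells at high temperature make chaperones, which hold or refold damaged proteins, under the heat shock factor Hsf1, and in fission yeast the stress kinase Sty1 and its transcription factor Atf1 raise a common set of stress genes. Growth genes, such as those for ribosomes, biosynthesis and division, are commonly turned down while stress lasts. On return to the growth temperature transcripts can go back to the starting level, stay where heat put them, or move for the first time, and the transcripts of a gene can lag behind the signal that raised it because they must also be degraded.

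Signals below are array intensities after quantile normalization over S. pombe probe sets, and changes are 1 h of recovery minus 43C on the log2(signal + 16) scale, which understates the changes of dim genes. Before normalization the median S. pombe signal was 1024 in opi10- and 989 in opi10+ at 1 h of recovery, against 517 in opi10- and 492 in opi10+ at 43C. The deposited values thus moved up by a median of 0.92 log2, and normalization left a median of 0.032. All changes below are therefore relative to the other genes unless the deposited scale is named. Whether the shift lies in the cells' RNA or in the authors' scaling was not tested. The median S. cerevisiae probe set, which serves as background, had a deposited signal between 1.96 and 3.09 over the 8 arrays.

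The first hour at 30C changed most of the measured transcripts relative to each other. Of 2892 genes, 1015 (35.1%) were higher and 877 (30.3%) lower at 1 h of recovery than at 43C by limma at an adjusted p threshold of 0.05. The change was at least 2-fold for 238 (8.23%) of the higher and 258 (8.92%) of the lower genes. Each condition has 2 arrays, 1 per strain, so the error measures how far the strains' changes lay apart, and its median was 0.10 log2. Both 1 h arrays lay above both 43C arrays in 1290 genes and below them in 1160. Of the called genes 3 had overlapping arrays. On the deposited scale 2272 genes were called higher and 211 lower, and 91.5% of the calls were upward there, against 53.6% after normalization.

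The change could be read in each strain on 1 array per condition. Changes of at least 2-fold numbered 231 (7.99%) upward and 256 (8.85%) downward in opi10-, and 248 (8.58%) upward and 267 (9.23%) downward in opi10+. Across the 2892 genes the changes in opi10- and in opi10+, which share no array, had a Pearson r of 0.951, a description across genes that are not independent replicates. The sign was the same in both strains for 1892 of 1892 called genes, which is built into a test whose error is the distance between the strains. The absolute difference between the strains' changes had a median of 0.13 log2, and it reached 2-fold in a few genes, with opi10- the higher in 5 and the lower in 4. The plot of the change in opi10- against that in opi10+ shows this spread.

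**Figure D1:**
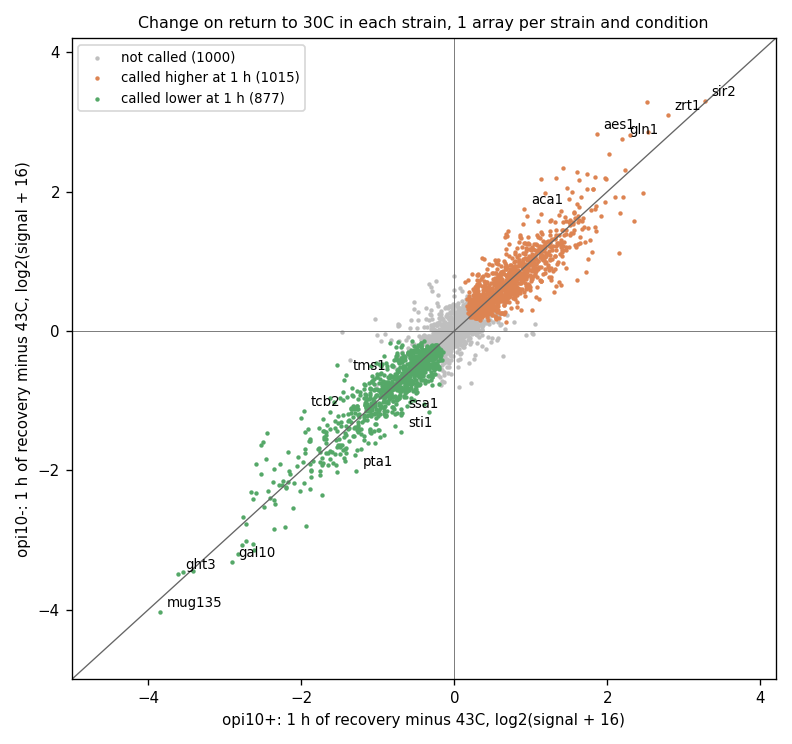
Change from 43C to 1 h of recovery in opi10- (vertical axis) and in opi10+ (horizontal axis), log2(signal + 16), for 2892 genes, 1 array per strain and condition. Colours mark the 1015 genes called higher and the 877 called lower at 1 h, and the diagonal marks equal change; points lie along it from mug135 at -4.03 and -3.84 to sir2 at 3.30 and 3.27.

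Among the 12 largest rises were sir2, zrt1, amt1, gln1 and adh4. The histone deacetylase gene sir2 had signals of 411 in opi10- and 418 in opi10+ at 1 h of recovery, against 27.4 in opi10- and 28.9 in opi10+ at 43C. It was 9.76-fold higher (3.29 ± 0.083 log2, adjusted p = 1.6e-05), the largest rise of all. The zinc transporter gene zrt1 had signals of 8035 in opi10- and 6804 in opi10+ at 1 h of recovery, against 928 in opi10- and 971 in opi10+ at 43C, and was 7.68-fold higher (2.94 ± 0.11 log2, adjusted p = 2.5e-05). These neighbours overlap in the RefSeq annotation (ASM294v3), and whether their probe sets read shared transcripts was not tested. The ammonium transporter gene amt1 had signals of 1406 in opi10- and 1392 in opi10+ at 1 h of recovery, against 179.8 in opi10- and 228 in opi10+ at 43C, and was 6.48-fold higher (2.70 ± 0.12 log2, adjusted p = 4.5e-05). Glutamine synthetase, which fixes ammonium into glutamine, is encoded by gln1. Its signals were 3421 in opi10- and 3348 in opi10+ at 1 h of recovery, against 491 in opi10- and 719 in opi10+ at 43C, which is 5.57-fold higher (2.48 ± 0.18 log2, adjusted p = 1.1e-04). The alcohol dehydrogenase gene adh4 had signals of 4567 in opi10- and 4457 in opi10+ at 1 h of recovery, against 990.2 in opi10- and 1129 in opi10+ at 43C, and was 4.22-fold higher (2.08 ± 0.10 log2, adjusted p = 4.5e-05). In each of these genes both 1 h arrays stood well above both 43C arrays.

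Of the 12 largest rises the others were meu18, named for its induction in meiosis, at 2.90 log2, htd2, a dehydratase gene of mitochondrial fatty acid synthesis, at 2.55, aes1 at 2.34, arv1, which acts in lipid homeostasis of the endoplasmic reticulum, at 2.28, mug170 at 2.27 and ers1, a factor of RNA interference, at 2.22. The probe set annotated as pho1, whose identifier now names the non-coding transcript nc-pho1, rose by 2.08 log2. Its signals were 9096 in opi10- and 8239.7 in opi10+ at 1 h of recovery, against 1986 in opi10- and 2074 in opi10+ at 43C. All 12 had been at least 2-fold lower at 43C than before heat, and 11 of them returned to within 2-fold of the starting level. The exception was zrt1, which went past it by 1.31 log2.

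Among the 12 largest falls were mug135, ght3, gal10, gld1, hri1 and gal1. The gene mug135, named for induction in meiosis, had signals of 172 in opi10- and 188 in opi10+ at 1 h of recovery, against 3043 in opi10- and 2904 in opi10+ at 43C. It was 15.3-fold lower (-3.93 ± 0.12 log2, adjusted p = 2.5e-05), the largest fall of all. The gene ght3, of the hexose transporter family, had signals of 92.5 in opi10- and 73.4 in opi10+ at 1 h of recovery, against 1203 in opi10- and 1072 in opi10+ at 43C, and was 11.7-fold lower (-3.55 ± 0.13 log2, adjusted p = 2.5e-05). The groups lay far apart in both genes, with no overlap. The galactose epimerase gene gal10 had signals of 110.1 in opi10- and 205 in opi10+ at 1 h of recovery, against 1234 in opi10- and 1641 in opi10+ at 43C, and was 8.62-fold lower (-3.11 ± 0.33 log2, adjusted p = 3.3e-04). Its neighbour, the galactokinase gene gal1, had signals of 206 in opi10- and 228 in opi10+ at 1 h of recovery, against 1399.9 in opi10- and 1640.0 in opi10+ at 43C, and was 6.59-fold lower (-2.72 ± 0.23 log2, adjusted p = 1.6e-04). The glycerol dehydrogenase gene gld1 had signals of 575 in opi10- and 978 in opi10+ at 1 h of recovery, against 5436 in opi10- and 7048 in opi10+ at 43C, and was 8.1-fold lower (-3.02 ± 0.32 log2, adjusted p = 3.4e-04). In opi10- the recovery signals of gal10 and gld1 lay below those of opi10+, on 1 array each.

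The eIF2 kinase gene hri1, which slows translation under stress, had signals of 255 in opi10- and 377 in opi10+ at 1 h of recovery, against 2161 in opi10- and 2571 in opi10+ at 43C, and was 7.27-fold lower (-2.86 ± 0.097 log2, adjusted p = 2.5e-05). The ESCRT-III gene vps24, for sorting of membrane proteins to the vacuole, changed by -2.84 log2 and sap1, an essential DNA-binding protein gene, by -2.88. The mug genes mug108, mug153, mug106 and mug9 changed by -3.50, -3.43, -2.93 and -2.74 log2. Heat had raised 11 of the 12 by at least 2-fold, and the other was gal1, at 0.63 log2 at 43C.

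Most of what heat had changed was back within 2-fold of its starting level after the hour at 30C. At 43C 353 genes (12.2%) were called at least 2-fold higher than before heat and 349 (12.1%) at least 2-fold lower. Of the 353 raised genes, 272 (77.1%) fell to within 2-fold of the starting level, 42 (11.9%) fell but stayed at least 2-fold above it, 37 (10.5%) were not called as changed and 2 went at least 2-fold below it. Of the 349 lowered genes, 290 (83.1%) rose to within 2-fold, 20 (5.73%) rose part of the way, 33 (9.46%) were not called, 1 went past the start and 5 fell further. The raised genes had a median change of 1.49 log2 at 43C and kept 0.53 at 1 h of recovery, and the lowered genes had -1.32 and kept -0.45. The same 2-fold cut chose the genes and judged their return, so a gene moved just past it needed only a small return. The chaperonin gene mcp60, for example, counted as back with 1.04 log2 at 43C and 0.53 left. The counts depend on this cut, and at 1.5-fold more genes counted as partly back or kept. Among raised genes 65 were not called without the opi10+ array at 43C, 75 without the opi10- array at 1 h, 82 without the opi10+ array at 1 h, and among lowered genes 60 without the opi10+ array at 1 h or the opi10- array at 1 h. These counts share the 43C and before-heat arrays and are a description. On the deposited scale 70 raised genes and 1244 lowered genes were back.

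The return was also read without shared arrays, by choosing genes in a strain and reading the other. Of 371 genes that were at least 2-fold higher at 43C than before heat in opi10+, 364 (98.1%) were lower at 1 h of recovery than at 43C in opi10- (median -1.06 log2). Over all genes 47.7% were lower there. Of 353 genes lowered in opi10+, 340 (96.3%) were higher in opi10- (median 0.96), against 52.2% of all genes. Chosen in opi10- and read in opi10+, 340 of 352 raised genes (96.6%) were lower (median -0.97), and 314 of 347 lowered genes (90.5%) were higher (median 0.89). The shares over all genes were 48.5% and 51.3%.

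**Figure D2:**
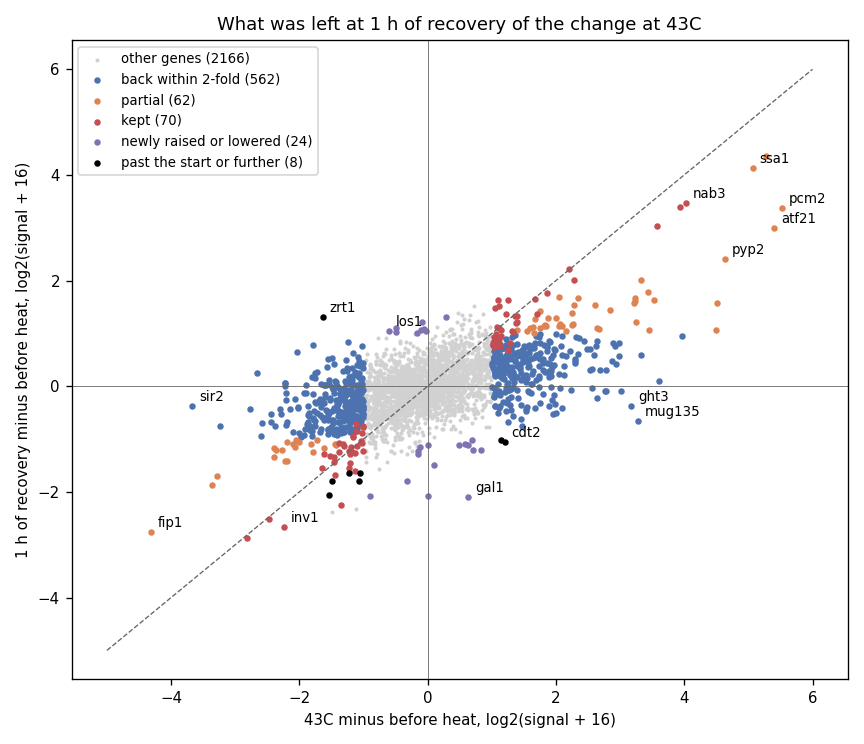
Change at 43C (horizontal axis) and change left at 1 h of recovery (vertical axis), both against the arrays before heat, log2(signal + 16), for 2892 genes. Genes on the horizontal line at 0 are back at the start and genes on the dashed diagonal have kept the whole change; the axes share the before-heat arrays. The 562 genes back within 2-fold lie in flat bands beside the 2166 other genes, with ssa1 at 5.07 and 4.14 and nab3 at 4.03 and 3.47 near the diagonal.

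Genes that fell but stayed high included the stress regulators atf21 and pyp2, which were among the 5 largest falls of this kind. The bZIP factor gene atf21 had signals of 271 in opi10- and 333 in opi10+ at 1 h of recovery, against 1503 in opi10- and 1843 in opi10+ at 43C, and of 11.9 in opi10- and 40.2 in opi10+ before heat. It was 5.31-fold lower (-2.41 ± 0.18 log2, adjusted p = 1.1e-04) and remained 3.00 log2 above the start. The gene pyp2, which encodes a phosphatase that turns off Sty1, had signals of 1344 in opi10- and 1629.5 in opi10+ at 1 h of recovery, against 6248 in opi10- and 7810.1 in opi10+ at 43C, was 4.68-fold lower (-2.23 ± 0.15 log2, adjusted p = 8.5e-05), and remained 2.41 above the start. Between them these genes had lost less than the whole rise of 5.41 and 4.64 log2. The others among the 5 largest falls of this kind were mug153, mug106 and mug35, at -3.43, -2.93 and -2.37, which remained 1.07, 1.58 and 1.07 above.

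Among genes that stayed high with no called change, the 5 with the largest rises at 43C were nab3, cta3, mel1, mug121 and amt3. The signals of nab3 were 4369 in opi10- and 5346 in opi10+ at 1 h of recovery, against 6979 in opi10- and 7287 in opi10+ at 43C, a change of -0.56 log2 (adjusted p = 0.141). The cation-transporting ATPase gene cta3 had signals of 1967 in opi10- and 1737 in opi10+ at 1 h of recovery, against 2562 in opi10- and 2869 in opi10+ at 43C, a change of -0.55 (adjusted p = 0.179). In both genes the recovery arrays lay below the 43C arrays by less than the test could call. The galactosidase gene mel1 had signals of 727 in opi10- and 300.5 in opi10+ at 1 h of recovery, against 759.8 in opi10- and 621 in opi10+ at 43C, a change of -0.54 (adjusted p = 0.317), and its groups overlapped. The ammonium transporter gene amt3, at 0.011 log2, had signals of 1077 in opi10- and 1603 in opi10+ at 1 h of recovery, against 1075 in opi10- and 1582 in opi10+ at 43C. While amt1 rose, amt3 was thus level on each strain's pair of arrays. The gene mug121 was at -0.28 (adjusted p = 0.198). Relative to before heat the 5 stood 3.47, 3.39, 3.03, 2.01 and 2.22 log2 higher, in the order named.

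Iron uptake, septum and sugar genes were among those that stayed low. The 5 with the largest falls at 43C that were not called were str3, eng1, inv1, gsa1 and nda2. The iron-siderophore transporter gene str3 had signals of 31.1 in opi10- and 13.8 in opi10+ at 1 h of recovery, against 19.4 in opi10- and 26.9 in opi10+ at 43C, dim throughout, a change of -0.057 (adjusted p = 0.947). The glucanase gene eng1, which cuts the septum between daughter cells, had signals of 192 in opi10- and 166 in opi10+ at 1 h of recovery, against 160.2 in opi10- and 211 in opi10+ at 43C, a change of -0.041 (adjusted p = 0.934). In both genes the 43C and recovery arrays overlapped. The invertase gene inv1 had signals of 438 in opi10- and 453 in opi10+ at 1 h of recovery, against 485 in opi10- and 758 in opi10+ at 43C, a change of -0.43 (adjusted p = 0.47). Before heat inv1 had stood at 1412 in opi10- and 6031 in opi10+. The glutathione synthesis gene gsa1 was at 0.11 and the tubulin gene nda2 at 0.33 (adjusted p = 0.36 and 0.0688).

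Genes that rose part of the way were led by ser2, fip1, rep2, erg28 and slc1. The phosphoserine phosphatase gene ser2, for serine synthesis, had signals of 261 in opi10- and 249 in opi10+ at 1 h of recovery, against 54.4 in opi10- and 100.3 in opi10+ at 43C, and was 2.99-fold higher (1.58 ± 0.24 log2, adjusted p = 0.00154). The iron permease gene fip1 had signals of 151 in opi10- and 136 in opi10+ at 1 h of recovery, against 40.6 in opi10- and 36 in opi10+ at 43C, and was 2.94-fold higher (1.56 ± 0.40 log2, adjusted p = 0.0133). The call of fip1 was lost without the opi10+ array at 1 h of recovery or the opi10- array at 43C (adjusted p = 0.0695 to 0.115). The gene rep2, an activator of G1/S transcription, was 2.82-fold higher (1.495 ± 0.10 log2, adjusted p = 9.0e-05). The sterol synthesis gene erg28 rose by 1.22 and the phospholipid acyltransferase gene slc1 by 1.17 log2. They remained -1.70, -2.75, -1.87, -1.17 and -1.20 log2 from the start, in the order named.

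A few genes moved on in the direction heat had taken. The 5 that fell further were pam1, the ubiquinone synthesis gene coq9, the hexose transporter gene ght5, ssb2 for a subunit of the single-strand binding complex RPA, and the hexokinase gene hxk1, at -0.71, -0.59, -0.52, -0.41 and -0.30 log2. All 5 were positive on the deposited scale, at 0.34, 0.47, 0.23, 0.79 and 0.60, below the shift of 0.92 of all genes. The call of ght5 was lost without the opi10+ array at 43C or the opi10- array at 1 h (adjusted p = 0.0965 to 0.116), that of ssb2 without the opi10- array at 1 h (0.0881) and with median centring (-0.19 log2, 0.136), and that of hxk1 without the opi10- array at 1 h or either opi10+ array (0.0961 to 0.28).

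New changes, in genes that heat had not moved by 2-fold, were fewer. At 1 h of recovery 100 genes (3.46%) were called at least 2-fold higher and 103 (3.56%) lower than before heat, and 9 and 15 of them were new in this sense. The tRNA exportin gene los1 had signals of 3002 in opi10- and 3158 in opi10+ at 1 h of recovery, against 1061 in opi10- and 875 in opi10+ at 43C, and was 3.16-fold higher (1.66 ± 0.10 log2, adjusted p = 7.3e-05). The ribosome assembly gene urb2 had signals of 2397 in opi10- and 2285 in opi10+ at 1 h of recovery, against 797 in opi10- and 733 in opi10+ at 43C, and was 3.02-fold higher (1.59 ± 0.14 log2, adjusted p = 1.9e-04). The gene seb1, for an RNA-binding factor of transcription termination, had signals of 3109.6 in opi10- and 3022 in opi10+ at 1 h of recovery, against 1035 in opi10- and 1085 in opi10+ at 43C, and was 2.86-fold higher (1.52 ± 0.12 log2, adjusted p = 1.1e-04). These 3 genes act in the making or export of RNA, and their recovery arrays stood clear of the 43C arrays. At 43C los1, urb2 and seb1 had been at -0.61, -0.50 and -0.49 log2 from the start, so part of each rise was a return. At 1 h they stood 1.05, 1.09 and 1.02 log2 above the start, just past the 2-fold cut. The others of the 5 largest were mcp4 at 1.32 and spo3, a gene of spore membrane formation, at 1.17.

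Beside gal1, the largest new falls were those of mug182, sib2, ssb3 and dsk2. The siderophore synthesis gene sib2 had signals of 104 in opi10- and 99.8 in opi10+ at 1 h of recovery, against 347 in opi10- and 639 in opi10+ at 43C, and was 4.13-fold lower (-2.05 ± 0.34 log2, adjusted p = 0.00218). The RPA subunit gene ssb3 had signals of 71.7 in opi10- and 77.2 in opi10+ at 1 h of recovery, against 352 in opi10- and 299 in opi10+ at 43C, and was 3.77-fold lower (-1.91 ± 0.13 log2, adjusted p = 9.4e-05). The ubiquitin receptor gene dsk2 was 3.34-fold lower (-1.74 ± 0.12 log2, adjusted p = 9.0e-05) and mug182 4.23-fold lower (-2.08 ± 0.32 log2, adjusted p = 0.00145). At 43C sib2, ssb3 and dsk2 had been 0.83, 0.70 and 0.63 log2 above the start, so part of each fall was a return. At 1 h they stood at -1.21, -1.21 and -1.11 log2 from it, while mug182, level at 43C, stood at -2.08. The genes cdt2, for a replication-linked ubiquitin ligase adaptor, and nhp6, for a chromatin protein, had been raised at 43C by 1.20 and 1.14 log2. They fell past the start, to -1.05 and -1.01. The signals of cdt2 were 111 in opi10- and 124 in opi10+ at 1 h of recovery, against 570.1 in opi10- and 669.8 in opi10+ at 43C.

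**Figure D3:**
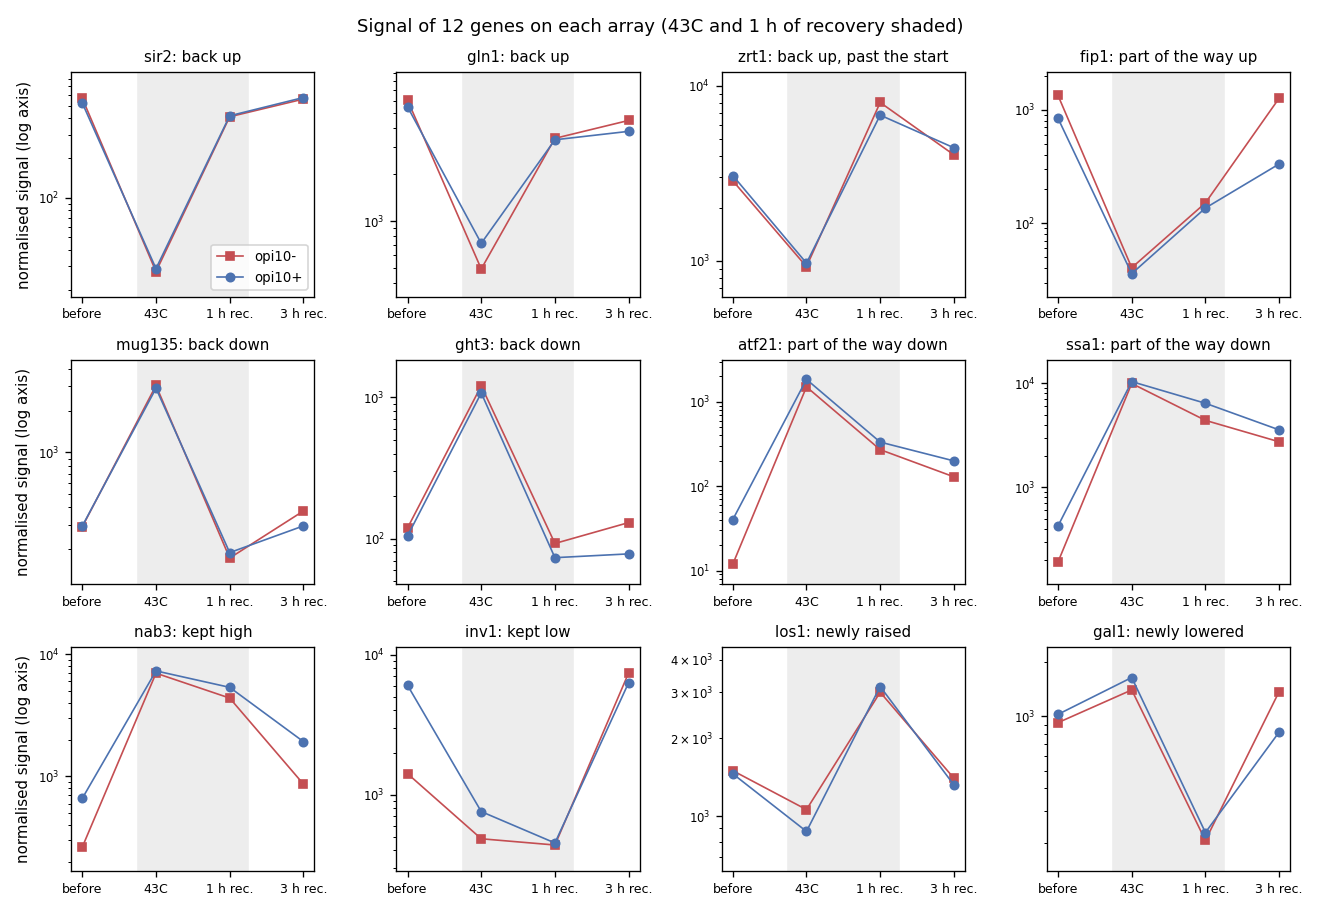
Normalised signal (log axis) of 12 genes over the time course (before heat, 43C, then 1 h and 3 h back at 30C) in opi10- (squares) and opi10+ (circles), 1 array per point, with 43C and 1 h shaded. Between the shaded conditions sir2, gln1 and zrt1 rise in both strains, mug135 and ght3 fall back, atf21 and ssa1 fall part of the way, nab3 and inv1 stay near their 43C level, and los1 and gal1 leave their level for the first time by 2-fold.

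Many chaperone genes were lower after the hour at 30C. Over 4 lists of chaperones and their partners, of 26 measured genes, 14 were lower, 5 higher and 7 not called, with a median of -0.41 log2. Of all genes 30.3% were lower and 35.1% higher. Heat had raised 12 of the 26 by at least 2-fold, against 12.2% of all genes. Of the 12, 8 were back, 2 partly back and 2 not called, while 77.1% of all raised genes were back. The inducible HSP70 gene ssa1 had signals of 4394 in opi10- and 6417 in opi10+ at 1 h of recovery, against 9947 in opi10- and 10367 in opi10+ at 43C. Before heat it stood at 191 in opi10- and 425 in opi10+. It was 1.91-fold lower (-0.93 ± 0.22 log2, adjusted p = 0.0092) and remained 4.14 log2 above the start. The call of ssa1 was lost without the opi10- array at 43C or either array at 1 h (adjusted p = 0.0508 to 0.0718).

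In the HSP70 and HSP110 family, of 6 measured genes, 1 was higher and 2 lower (0 lower without the opi10+ array at 1 h or the opi10- array at 43C or the opi10- array at 1 h, 1 without the opi10+ array at 43C). The endoplasmic reticulum HSP70 gene bip1 had signals of 5570.5 in opi10- and 6727 in opi10+ at 1 h of recovery, against 9873 in opi10- and 9965 in opi10+ at 43C, and was 1.62-fold lower (-0.69 ± 0.23 log2, adjusted p = 0.0325), a call lost when any of the 4 arrays was left out (adjusted p = 0.062 to 0.18). The constitutive ribosome-associated HSP70 gene sks2 had signals of 8702 in opi10- and 8451 in opi10+ at 1 h of recovery, against 6816 in opi10- and 7252 in opi10+ at 43C, and was 1.22-fold higher (0.29 ± 0.082 log2, adjusted p = 0.0201). Its call was also lost when any of the 4 arrays was left out (0.0545 to 0.138), and with arrays centred on their medians it was lower, at -0.33. The HSP110 gene pss1, at -0.36, the mitochondrial gene ssc1, at -0.17, and ssa2, at -0.14, were not called (adjusted p = 0.111, 0.119 and 0.252). The shares of the list, 16.7% higher and 33.3% lower, stood against 35.1% and 30.3% of all genes, so the count of falls was near background. With median centring 6 of 6 were called lower. The median signal of the list was 7140.0, and all 6 genes lay among the brightest 25% of genes.

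Genes for partner proteins of HSP70 and HSP90 were mostly lower. In the J-domain and the HSP90 lists alike 25% were higher and 62.5% lower, against 35.1% and 30.3% of all genes. Among J-domain and exchange factors, which drive the HSP70 cycle, of 8 measured genes, 2 were higher and 5 lower (3 lower without the opi10- array at 1 h). The J-domain gene psi1 had signals of 3285 in opi10- and 4552 in opi10+ at 1 h of recovery, against 11171 in opi10- and 12796 in opi10+ at 43C, and was 3.08-fold lower (-1.62 ± 0.14 log2, adjusted p = 1.7e-04). It remained 1.62 above the start. The mitochondrial J-domain gene mdj1 was 2.96-fold lower (-1.56 ± 0.15 log2, adjusted p = 2.4e-04) and mas5 1.98-fold lower (-0.99 ± 0.22 log2, adjusted p = 0.00792), the last not called without either the opi10- array at 43C or that at 1 h (adjusted p = 0.0573 to 0.0732). The exchange factor gene bag101 was at -0.82, though at 0.27 on the deposited scale. In the HSP90 system, of 8 measured genes, 2 were higher and 5 lower (3 lower without the opi10+ array at 43C or the opi10- array at 43C or the opi10- array at 1 h). The co-chaperone gene cdc37, which loads kinases onto HSP90, had signals of 626 in opi10- and 825 in opi10+ at 1 h of recovery, against 3719 in opi10- and 3623 in opi10+ at 43C, and was 5.02-fold lower (-2.33 ± 0.17 log2, adjusted p = 9.9e-05). The p23 gene wos2 fell to 4201 in opi10- and 5489.7 in opi10+ at 1 h, against 12796 in opi10- and 12057 in opi10+ at 43C, a change of -1.37, and git7, an Sgt1 family gene, rose by 1.30. HSP90 itself (hsp90) was at -0.39 and the heat shock factor gene hsf1 at -0.36 (adjusted p = 0.0303 and 0.0321). The call of hsf1 was lost when any of the 4 arrays was left out (0.101 to 0.147), and on the deposited scale hsf1 was at 0.22. The call of hsp90 was lost without either array at 43C or the opi10- array at 1 h (0.0972 to 0.228), and on the deposited scale (0.16). The genes hsp90 and hsf1 were chosen after their values were seen.

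Of the small heat shock protein genes neither measured member was called. Among HSP100, small and mitochondrial heat shock proteins, of 4 measured genes, 0 were higher and 2 lower (1 lower without the opi10- array at 43C or the opi10- array at 1 h). The mitochondrial chaperonin genes hsp10 and mcp60 were at -0.90 and -0.51 log2 (adjusted p = 0.00131 and 0.00887), and the call of mcp60 was lost without the opi10- array at 43C or at 1 h (0.0723 to 0.0838). The small heat shock protein gene hsp16 had signals of 7810.1 in opi10- and 7435 in opi10+ at 1 h of recovery, against 8275 in opi10- and 7975 in opi10+ at 43C, a change of -0.092 (adjusted p = 0.785). It stood 1.77 above the start. The gene hsp9 was at -0.0097 (adjusted p = 0.931) and had been bright before heat, at 8524 in opi10- and 9947 in opi10+. In the chaperonin CCT and its partner prefoldin, which fold actin and tubulin, of 10 measured genes, 1 was higher and 2 lower (0 lower without the opi10+ array at 1 h or the opi10- array at 43C or the opi10- array at 1 h, 1 without the opi10+ array at 43C). Of all genes 35.1% were higher and 30.3% lower. The HSP100 list had 0% and 50%, and the CCT list 10% and 20%. The prefoldin gene pfd3 rose by 1.23, and with median centring 9 of the 10 genes of the CCT list were lower.

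Most measured genes of the core stress response fell. Of 40 measured genes, 6 were higher and 25 lower, with a median of -0.58, against 35.1% and 30.3% of all genes. Without sod2, which was matched by its older name and is now nhe1, the counts were 5 and 25 of 39. Heat had raised 18 of the 40 by at least 2-fold, against 12.2% of all genes. Of the 18, 13 were back, 3 partly back and 2 not called, while 77.1% of all raised genes were back. Beside gld1, atf21 and pyp2, the aldo-keto reductase gene plr1, for pyridoxal reduction, had signals of 2070.0 in opi10- and 2196 in opi10+ at 1 h of recovery, against 7029 in opi10- and 7065 in opi10+ at 43C, and was 3.29-fold lower (-1.72 ± 0.11 log2, adjusted p = 7.4e-05). The trehalose synthesis gene tps1 and the sulfiredoxin gene srx1, chosen after their values were seen, were at -1.35 and -1.29. Of the stress kinase pathways, of 28 measured genes, 5 were higher and 18 lower, with a median of -0.59. The phosphorelay gene mpr1, which signals to Sty1, was 4.29-fold lower (-2.10 ± 0.1 log2, adjusted p = 4.5e-05), and the phosphatase gene ptc1 was 2.69-fold lower (-1.43 ± 0.16 log2, adjusted p = 4.0e-04). Relative to all genes both medians were also negative on the deposited scale, at -1.17 and -0.74. Among the brightest 25% of genes, whose deposited median was 0.59 log2 against 0.92 of all genes, lay 23 of 40 and 9 of 28 members. The part of brightness in both medians was not tested.

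Calls in the proteasome, hexose and glycolysis lists were mostly downward. In that order 71.4%, 58.8% and 61.5% of members were lower, against 30.3% of all genes. Members that were higher made up 7.14%, 5.88% and 7.69%, against 35.1% of all genes. Of the proteasome, of 28 measured genes, 2 were higher and 20 lower, with a median of -0.50. The deubiquitinase subunit gene rpn11 had signals of 908 in opi10- and 984 in opi10+ at 1 h of recovery, against 3056 in opi10- and 3022 in opi10+ at 43C, and was 3.18-fold lower (-1.67 ± 0.10 log2, adjusted p = 7.1e-05). The ATPase subunit genes rpt6 and rpt2 were at -1.16 and -1.10, and cut8, which tethers the proteasome to the nucleus, at -1.05. No proteasome gene had been moved by 2-fold at 43C. Of genes for hexose transport and alternative sugars, of 17 measured genes, 1 was higher and 10 lower, with a median of -0.63. They were led by ght3, gal10 and gal1, and the gluconeogenic gene fbp1 was 2.28-fold lower (-1.19 ± 0.20 log2, adjusted p = 0.00225). Of glycolysis and fermentation, of 13 measured genes, 1 was higher and 8 lower (3 lower without the opi10- array at 1 h, 5 without the opi10+ array at 1 h). The isomerase gene pgi1 had signals of 4256 in opi10- and 5436 in opi10+ at 1 h of recovery, against 10788 in opi10- and 11049 in opi10+ at 43C, and was 2.27-fold lower (-1.18 ± 0.13 log2, adjusted p = 4.2e-04). The enolase gene eno102 and the hexokinase gene hxk2 were at -1.14 and -0.96, and the member that rose was adh4. On the deposited scale these 3 lists also had medians below that of all genes, at -0.70, -0.63 and -1.03. Among the brightest 25% of genes, whose deposited median was 0.59 log2 against 0.92 of all genes, lay 20 of 28, 4 of 17 and 12 of 13 members. The part of brightness in these medians was not tested.

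Most measured genes of amino acid and nucleotide synthesis rose. Of amino acid synthesis genes, of 46 measured genes, 28 were higher and 5 lower, with a median of 0.52. Beside gln1 and ser2, the glutamate dehydrogenase gene gdh2 had signals of 7306 in opi10- and 6705 in opi10+ at 1 h of recovery, against 2270.4 in opi10- and 3043 in opi10+ at 43C, and was 2.65-fold higher (1.41 ± 0.15 log2, adjusted p = 3.4e-04). The lysine synthesis gene lys3 was 2.39-fold higher (1.26 ± 0.095 log2, adjusted p = 1.1e-04). Of nucleotide synthesis genes, of 17 measured genes, 11 were higher and 0 lower, with a median of 0.55. The purine genes ade5, ade9, ade1 and ade2 rose by 1.43, 1.30, 0.94 and 0.84. The signals of ade5 were 1279 in opi10- and 1152 in opi10+ at 1 h of recovery, against 477 in opi10- and 409 in opi10+ at 43C. On the deposited scale the medians stayed above that of all genes, by 0.16 and 0.28, and with median centring 19 of the 46 amino acid genes and 7 of the 17 nucleotide genes were called higher. Of nutrient uptake genes, of 20 measured genes, 7 were higher and 2 lower, or 35% and 10%, against 35.1% and 30.3% of all genes. The count of rises was thus at background. The rises were led by zrt1, amt1 and nc-pho1, and the transporter gene fnx1 rose by 1.46. By current symbols alone the counts were 5 and 2 of 17. Their median of 0.11 lay above that of all genes here and -0.093 from it on the deposited scale.

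The direction of ribosome genes relative to other genes depended on the scale. Of cytosolic ribosomal protein genes, of 118 measured genes, 81 were higher and 1 lower (47 higher without the opi10+ array at 43C, 52 without the opi10- array at 1 h), with a median of 0.34, whereas on the deposited scale their median lay -0.23 from that of all genes and with median centring 17 were called higher. The shares after quantile normalization were 68.6% higher and 0.85% lower, against 35.1% and 30.3% of all genes. Of the cytosolic ribosomal protein genes, 117 of 118 lay among the brightest 25%, with a median signal of 7698. Deposited changes differed by brightness, with medians of 0.59 log2 in the brightest 25% of genes and 1.15 in the dimmest 25%, and normalization left 0.11 and -0.074. The part of brightness in the ribosomal result was not tested. Heat had lowered 13 of the 118 by at least 2-fold, a share near the 12.1% of all genes. All 13 were back, against 83.1% of all lowered genes. The gene rpl102 had signals of 4996 in opi10- and 4712 in opi10+ at 1 h of recovery, against 1765 in opi10- and 1439 in opi10+ at 43C, and was 3.02-fold higher (1.60 ± 0.10 log2, adjusted p = 7.4e-05). The genes rpl401, rps2302 and rps2601 were at 1.51, 1.43 and 1.35, and their deposited changes were 2.11, 2.04 and 1.93, above the shift of all genes.

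Of ribosome assembly genes, of 47 measured genes, 19 were higher and 2 lower (11 higher without the opi10- array at 1 h, 12 without the opi10+ array at 1 h), and of RNA polymerase I and III genes, of 23 measured genes, 9 were higher and 2 lower. Their medians were 0.28 and 0.31, but -0.015 and -0.016 from all genes on the deposited scale. The shares higher, 40.4% and 39.1%, lay near the 35.1% of all genes. The shares lower were 4.26% and 8.7%, against 30.3%. The rRNA methylation gene rrp8 was 1.98-fold higher (0.99 ± 0.079 log2, adjusted p = 1.3e-04), and the polymerase III subunit gene rpc11 1.95-fold higher (0.97 ± 0.10 log2, adjusted p = 3.3e-04). The polymerase I factor gene rrn11 rose by 1.28, and nop12 and rpc37 fell by 0.90 and 1.02 log2. Translation factors, given next, were higher in 28.6% and lower in 9.52%, both below the shares of all genes. Of translation factors, of 21 measured genes, 6 were higher and 2 lower (3 higher without the opi10+ array at 43C or the opi10- array at 1 h), with tif223 at 1.07. Of mitochondrial ribosomal protein genes, of 47 measured genes, 16 were higher and 15 lower (10 higher without the opi10- array at 1 h), or 34% and 31.9%, near the shares of all genes. Of these, mrp17 was 5.69-fold lower (-2.51 ± 0.093 log2, adjusted p = 2.5e-05) while rsm18 was 2.46-fold higher (1.30 ± 0.083 log2, adjusted p = 7.4e-05). Of the respiratory chain and ATP synthase, of 51 measured genes, 14 were higher and 12 lower (9 higher without the opi10+ array at 1 h). The assembly genes atp11 and shy1 were at -1.77 and -1.64, and cox24 at 1.52.

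Lists of cell cycle genes are given by function, and no difference between lists was tested. Of the genes tied to MBF, the transcription factor of the G1/S transition, of 17 measured genes, 5 were higher and 9 lower, with a median of -0.55. The gene cdc10, for the MBF subunit that is required for the start of the cycle, had signals of 386 in opi10- and 280.5 in opi10+ at 1 h of recovery, against 1487 in opi10- and 1418 in opi10+ at 43C, and was 4.25-fold lower (-2.09 ± 0.14 log2, adjusted p = 7.6e-05). Ribonucleotide reductase, which makes DNA precursors, has its large subunit encoded by cdc22, which was 3.03-fold lower (-1.60 ± 0.34 log2, adjusted p = 0.00613). That call was lost without the opi10- array at 1 h (adjusted p = 0.0604). The members that rose included the activator gene rep2. Of DNA replication genes, of 29 measured genes, 16 were higher and 5 lower, with a median of 0.31. The shares higher and lower were 29.4% and 52.9% of MBF genes and 55.2% and 17.2% of replication genes. Over all genes these shares were 35.1% and 30.3%, so the MBF share higher was near background. The GINS gene psf3 had signals of 1409 in opi10- and 1221 in opi10+ at 1 h of recovery, against 467 in opi10- and 448 in opi10+ at 43C, and was 2.81-fold higher (1.49 ± 0.12 log2, adjusted p = 1.3e-04). The origin recognition genes orc6 and orc5 rose by 1.30 and 0.85, and the clamp loader gene rfc5 by 0.98. Relative to all genes, the MBF median stayed negative (-0.35) and the replication median positive (0.39) on the deposited scale.

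Most measured histone genes fell. Of these, of 11 measured genes, 0 were higher and 8 lower (5 lower without the opi10+ array at 1 h or the opi10- array at 1 h), with a median of -0.38. The centromeric histone gene cnp1 was 2.54-fold lower (-1.35 ± 0.14 log2, adjusted p = 3.1e-04), the H2A.Z gene pht1 1.93-fold lower (-0.95 ± 0.11 log2, adjusted p = 5.8e-04), and hta1 and hhf2, for H2A and H4, were at -0.82 and -0.75. Near-identical histone genes can share probes, so single members are uncertain. By share 0% of the histone genes were higher and 72.7% lower, against 35.1% and 30.3% of all genes. On the deposited scale 1 was called higher and 4 lower, and cnp1, at -0.11, was not called (adjusted p = 0.496). Among the brightest 25% of genes lay 10 of the 11, and the part of brightness in the histone result was not tested. Of septation genes, of 39 measured genes, 11 were higher and 10 lower (7 higher without the opi10- array at 1 h). The myosin light chain gene rlc1 had signals of 787 in opi10- and 677 in opi10+ at 1 h of recovery, against 159.5 in opi10- and 259.9 in opi10+ at 43C, and was 3.39-fold higher (1.76 ± 0.21 log2, adjusted p = 5.5e-04). The gene mob1, which acts in septation signalling, rose by 1.29, and the septin gene spn2 by 1.13. Of iron genes, of 18 measured genes, 3 were higher and 5 lower (3 lower without the opi10+ array at 1 h). The adrenodoxin reductase gene arh1 rose by 1.54 and fip1 rose, while sib2 fell, and str1 was at -1.19 (adjusted p = 0.0565). The iron list had 16.7% higher and 27.8% lower, against 35.1% and 30.3% of all genes. Its count of falls was thus near background.

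Other lists held changes in both directions. Of pre-mRNA splicing genes, of 74 measured genes, 20 were higher and 31 lower, with sap49 and prp2 at -1.83 and -1.82 and prp38 at 1.44. The signals of prp2, the large subunit of U2AF, were 2449 in opi10- and 2779 in opi10+ at 1 h of recovery, against 9083 in opi10- and 9397 in opi10+ at 43C. Of nuclear transport genes, of 40 measured genes, 12 were higher and 14 lower (8 lower without the opi10+ array at 43C or the opi10- array at 1 h). The exportin gene crm1 had signals of 881 in opi10- and 1240.0 in opi10+ at 1 h of recovery, against 3158 in opi10- and 3389 in opi10+ at 43C, and was 3.1-fold lower (-1.63 ± 0.17 log2, adjusted p = 3.0e-04), the importin gene kap114 was at -1.38, and the nucleoporin gene npp106 rose by 1.44. Of autophagy genes, of 20 measured genes, 2 were higher and 10 lower, with atg20 at -1.70 and atg12 at 1.61. Of sterol and fatty acid synthesis genes, of 25 measured genes, 11 were higher and 6 lower, with the reductase gene hmg1 at 1.07 and the epoxidase gene erg1 at -1.20. Of vesicle transport genes, of 85 measured genes, 27 were higher and 26 lower (17 higher without the opi10+ array at 1 h or the opi10- array at 1 h). Of mating genes, of 26 measured genes, 9 were higher and 7 lower. The cell fusion gene fus1 had signals of 209.8 in opi10- and 247 in opi10+ at 1 h of recovery, against 1104 in opi10- and 1637 in opi10+ at 43C, and was 5.58-fold lower (-2.48 ± 0.10 log2, adjusted p = 3.7e-05), while mei2, the RNA-binding switch to meiosis, had signals of 959.8 in opi10- and 977 in opi10+ at 1 h of recovery, against 185 in opi10- and 312 in opi10+ at 43C, and was 3.84-fold higher (1.94 ± 0.26 log2, adjusted p = 7.9e-04). Of mug genes, of 115 measured genes, 32 were higher and 46 lower. Of the 35 that heat had raised, 28 were back, a share near the 77.1% of all raised genes. Lists within 10 points of the background of 35.1% higher and 30.3% lower were, here, nuclear transport, vesicle transport, mating, sterol and mug genes, and above, mitochondrial ribosomal proteins, the respiratory chain and septation, and their counts are no result about these lists.

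**Figure D4:**
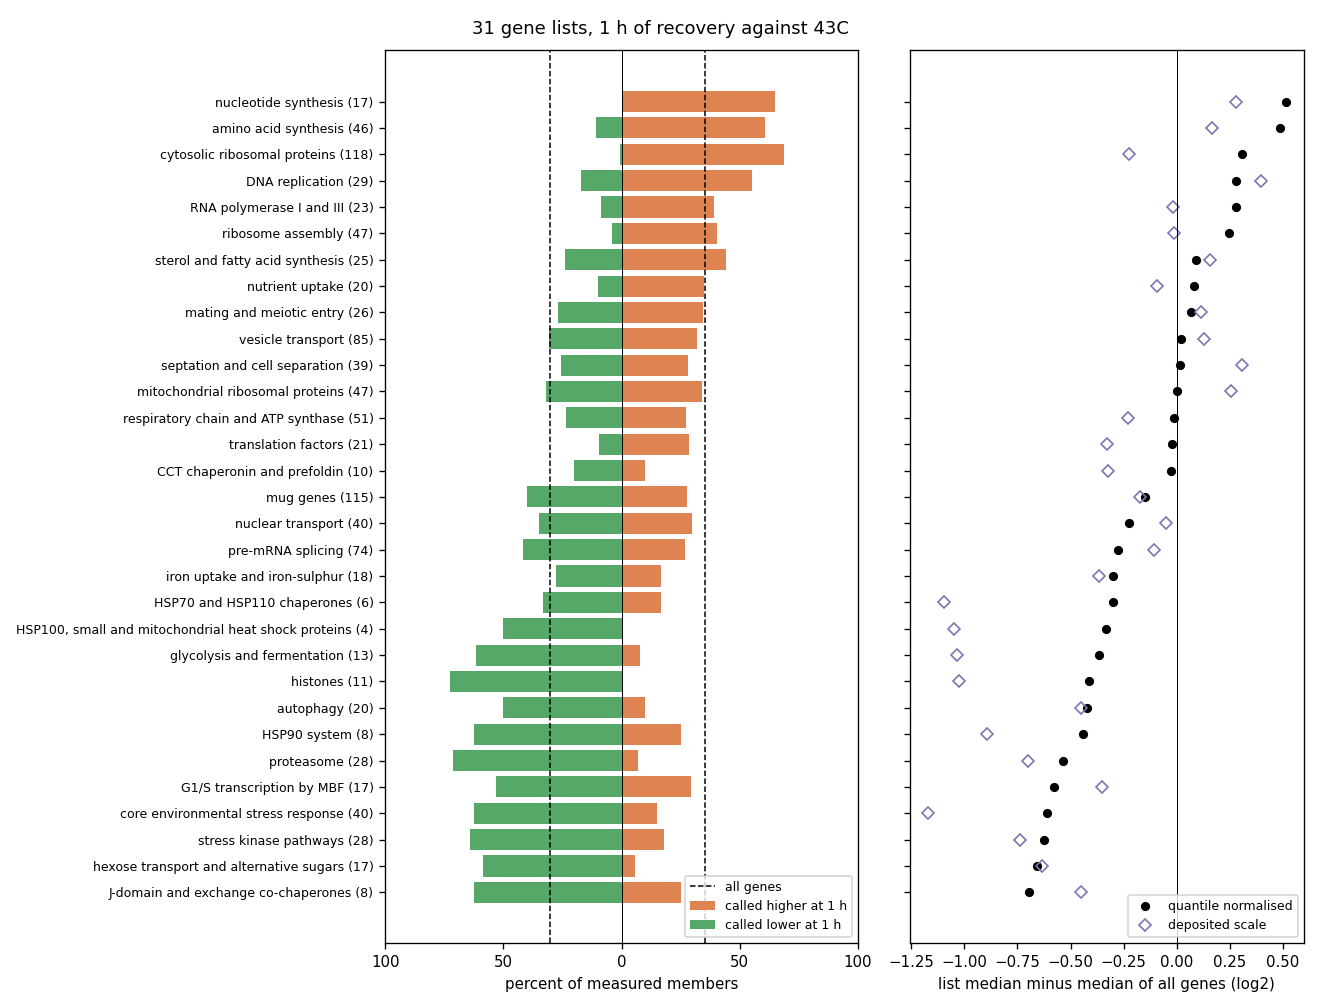
For 31 gene lists (measured members in brackets), the left panel gives the percent of members called lower (to the left) and higher (to the right) at 1 h of recovery than at 43C, with dashed lines at the shares of all genes, 30.3% and 35.1%. The right panel gives the list's median change minus that of all genes after quantile normalization (dots) and on the deposited scale (diamonds), which lie on opposite sides of 0 for 4 lists, cytosolic ribosomal proteins among them.

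Whether the first hour of recovery differs with opi10 rests on 1 array per strain and condition, so the differences have no replicate check and no test. Among genes brighter than the median, the change was furthest below that of opi10+ in sti1, mug35, pta1, wis2 and mfs2. The gene sti1, which links HSP70 and HSP90, was at -1.45 in opi10- and -0.69 in opi10+, with signals of 3536 in opi10- and 5962 in opi10+ at 1 h of recovery, against 9682 in opi10- and 9638 in opi10+ at 43C. The HSP90 cyclophilin gene wis2 was at -1.05 in opi10- and -0.39 in opi10+, and its 43C signal was the highest of all genes on both arrays. Polyadenylation factor gene pta1 was at -2.003 in opi10- and -1.28 in opi10+, mug35 at -2.80 in opi10- and -1.94 in opi10+ and the transporter gene mfs2 at -1.61 in opi10- and -1.03 in opi10+. In these 5 genes the strains were close at 43C and opi10- was lower at 1 h. The change was furthest above that of opi10+ in aes1, tms1, gst2, tcb2 and aca1. The gene aes1 was at 2.83 in opi10- and 1.86 in opi10+, with signals of 5938 in opi10- and 5755 in opi10+ at 1 h of recovery, against 824 in opi10- and 1572 in opi10+ at 43C, so that here the strains differed at 43C. The tricalbin gene tcb2, for contacts of membranes, was at -1.15 in opi10- and -1.96 in opi10+, tms1 at -0.64 in opi10- and -1.41 in opi10+, aca1 at 1.75 in opi10- and 0.92 in opi10+ and the glutathione transferase gene gst2 at 0.084 in opi10- and -0.73 in opi10+. The calls over both strains were lost for wis2, tcb2 and tms1 when single arrays were left out (adjusted p up to 0.0627, 0.0934 and 0.119).

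List medians can be set side by side in the strains. The HSP90 system had a median change of -0.63 in opi10- and -0.30 in opi10+, and the HSP70 and HSP110 family -0.42 in opi10- and -0.12 in opi10+. Of the HSP70 family, ssa1 was at -1.18 in opi10- and -0.69 in opi10+, bip1 at -0.82 in opi10- and -0.57 in opi10+, pss1 at -0.56 in opi10- and -0.17 in opi10+, ssc1 at -0.28 in opi10- and -0.068 in opi10+ and ssa2 at -0.22 in opi10- and -0.058 in opi10+. The values of these genes were lower in opi10-, and that of sks2 was higher there, at 0.35 in opi10- and 0.22 in opi10+. The J-domain list had a median of -0.59 in opi10- and -0.72 in opi10+. The core stress list had -0.55 in opi10- and -0.72 in opi10+, but the median of its members' own differences between strains was 0.00432. The proteasome had -0.54 in opi10- and -0.47 in opi10+. None of these differences was tested.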

How the data were processed

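RNA of 2 S. pombe strains in 4 conditions was hybridised to Affymetrix yeast arrays, 1 array for each strain and condition, after biotinylated cRNA synthesis, per the labels' protocols. The deposited values are intensity values on a linear scale for 10928 probe sets, and the sources used here do not give how the authors summarised or scaled them. Platform annotation, updated through a RefSeq gene table (ASM294v3), gave 1 S. pombe gene to 2914 probe sets (2896 genes), 1 S. cerevisiae gene to 2601, several genes to 20 and an unplaced name to 3. Another 213 were controls and 5177 had no gene. No sequences were used, and gene positions served only to find neighbouring genes among the largest changes.

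Values were transformed as log2(value + 16). Array medians differed by over 0.5 log2 (8.99 to 10.1), so arrays were quantile normalized over S. pombe probe sets. A gene was tested when its mean lay above the 75th percentile of S. cerevisiae probe sets (6.04), and its brightest probe set stood for it, which left 2892 genes. limma (version 3.58.1, in R 4.3.3) was fitted to all 8 arrays with terms for strain and condition, by lmFit and eBayes, with 3 residual and 3.48 prior degrees of freedom and Benjamini-Hochberg adjustment. The strain term pairs the arrays by genotype, and replicate numbers stand for the strains. The labels do not say whether arrays came from separate cultures, so the spread behind each p-value may be technical, and the number of arrays limits the precision. The limma fit was tested on simulated normalised values with known changes at 1 h of recovery. The scaling, the filter and the classes were not tested in this way.

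Heat-raised and heat-lowered genes were called and at least 2-fold at 43C against before heat. The members and lists were chosen with earlier results of these data known. A rule named 166 genes: the 12 largest rises and falls, the 5 largest of each class, the 4 largest of each list, the HSP70 family, and the 5 highest and 5 lowest strain differences. The text gives 148 genes, 4 of them outside the rule. Alternatives were the deposited scale, median centring, pseudocounts of 1 and 64, no filter and a filter at the 95th percentile, the mean of all probe sets, a fit of 4 arrays, no strain term, trended robust moderation, leaving out each array, and thresholds of 1.5-fold and 3-fold.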

Additional observations from a re-analysis of the deposited data

Results flagged for a closer look

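Some differences between 1 h of recovery and 43C had opposite signs in the strains, on 1 array each. None of these differences was tested. Among named genes, str3 was at 0.41 in opi10- and -0.52 in opi10+, a difference of 0.935 log2, gst2 at 0.084 in opi10- and -0.73 in opi10+, a difference of 0.811, and eng1 at 0.24 in opi10- and -0.32 in opi10+, a difference of 0.555. Smaller differences were those of gsa1, at 0.26 in opi10- and -0.039 in opi10+, or 0.296, and of hsp9, at -0.048 in opi10- and 0.028 in opi10+, or -0.0759. None of the 5 genes was called over both strains.

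Medians of 6 lists also lay on opposite sides of 0, or at 0 in opi10+. The CCT chaperonin and prefoldin list was at -0.031 in opi10- and 0.042 in opi10+, a difference of -0.0725, mitochondrial ribosomal proteins at 0.071 in opi10- and -0.0035 in opi10+, a difference of 0.0748, and translation factors at -0.0095 in opi10- and 0.031 in opi10+, a difference of -0.0402. The respiratory chain list was at 0.086 in opi10- and 0 in opi10+, a difference of 0.0858, septation at 0.092 in opi10- and -0.0082 in opi10+, a difference of 0.101, and mating at 0.061 in opi10- and -0.023 in opi10+, a difference of 0.0846.

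Signals of probe sets with no gene in the annotation also differed by 2-fold between 1 h of recovery and 43C. Of 1936 unnamed probe sets with a mean signal over 100, 205 were at least 2-fold higher and 245 at least 2-fold lower in both strains, or 23.2%, against 19.1% of 2782 S. pombe probe sets of that brightness. Of the S. cerevisiae probe sets 1 was as bright, and it did not change by 2-fold in both strains.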

How the results depend on the processing

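The sign of change over the named genes held in most settings: of 2664 recomputed values, 2559 kept sign and side of the threshold, 44 lost the call, 30 gained it and 31 changed sign. Of 131 called named genes, 110 kept sign and call under all 18 alternatives that apply to single genes. On the deposited scale the counts were higher 2272, lower 211, at least 2-fold higher 1349 and at least 2-fold lower 67. The classes were then heat-raised overshoot 0, heat-raised back 70, heat-raised partial 24, heat-raised further 4, heat-lowered overshoot 10, heat-lowered back 1244, heat-lowered partial 54, heat-lowered further 1, newly raised 33 and newly lowered 2. Lists counted ribosome assembly 43, RNA polymerase I and III 22, mitochondrial ribosome 44, respiratory chain 42, translation factors 18, DNA replication 29, septation 33, nutrient uptake 16, sterol 22, mating 19 and vesicle transport 73 higher and J-domain 3, HSP90 system 3, CCT 0, core stress 16, stress kinase 5, proteasome 8, splicing 5, nuclear transport 3, MBF 3, histones 4, iron uptake 2, hexose 4, glycolysis 5, autophagy 1 and mug genes 22 lower. That scale carries the shift of all genes. With median centring the lists counted ribosome assembly 11, cytosolic ribosome 17, translation factors 3, septation 19 and nucleotide 7 higher and HSP70 and HSP110 6, HSP100 4, CCT 9 and iron uptake 8 lower. Changes of sign on the deposited scale were ssa2 0.14, pam1 0.34, mel1 0.59, gst2 0.63, cta3 0.00992, bag101 0.27, ssb2 0.79, hsp9 0.0849, inv1 0.73, str3 0.34, ght5 0.23, coq9 0.47, eng1 1.29, hsp16 0.22, mug121 0.27, hxk1 0.60 and hsf1 0.22, and with median centring amt3 -0.23, sks2 -0.33 and eng1 0.31. A threshold of 1.5-fold gave heat-raised overshoot 15, heat-raised partial 120, heat-raised kept 122, heat-raised further 8, heat-lowered overshoot 14, heat-lowered back 459, heat-lowered partial 106, heat-lowered kept 142, heat-lowered further 17, newly raised 59 and newly lowered 46. At 3-fold they were heat-raised overshoot 0, heat-raised back 134, heat-raised partial 12, heat-raised kept 8, heat-lowered overshoot 0, heat-lowered back 90, heat-lowered partial 3, heat-lowered kept 5, heat-lowered further 0, newly raised 0 and newly lowered 2. A pseudocount of 1 gave 1 heat-raised gene that rose further, and of 64 gave 0 that overshot. The fit of 4 arrays gave 9 iron genes lower. The strain term pairs the arrays by genotype. With no replicate block 1 heat-raised gene rose further, and hxk1 was no longer called (adjusted p = 0.0528). Leaving out single arrays moved counts over these ranges: heat-raised overshoot 0 to 2, heat-raised kept 35 to 82, heat-raised further 0 to 3, heat-lowered kept 31 to 60, heat-lowered further 3 to 8, HSP70 and HSP110, lower 0 to 3, J-domain, lower 3 to 5, HSP90 system, lower 3 to 6, HSP100, lower 1 to 2, CCT, lower 0 to 2, ribosome assembly, higher 11 to 26, cytosolic ribosome, higher 47 to 81, mitochondrial ribosome, higher 10 to 17, respiratory chain, higher 9 to 13, translation factors, higher 3 to 6, nuclear transport, lower 8 to 14, septation, higher 7 to 11, histones, lower 5 to 8, iron uptake, lower 3 to 7, glycolysis, lower 3 to 8 and vesicle transport, higher 17 to 29. Named genes whose sign then turned ranged over amt3 -0.15 to 0.17, eng1 -0.53 to 0.45, gsa1 -0.0199 to 0.23, hsp16 -0.28 to 0.0856, hsp9 -0.0635 to 0.0456, mel1 -1.14 to 0.0621 and str3 -1.18 to 1.06. Fits with fewer arrays have fewer degrees of freedom, and a condition left with 1 array is assumed to vary like the others. Other causes were not tested. Dim genes such as str3 stand close to background, and no saturation calls were used for bright ones.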

Other observations

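Genes named for induction in meiosis were found at both ends of the change. The mug list held 115 of the 2892 genes. Of its members 27.8% were higher and 40% lower, near the 35.1% and 30.3% of all genes. Among the 12 largest rises were meu18 and mug170, and among the 12 largest falls mug135, mug108, mug153, mug106 and mug9. After 3 h of recovery the signals of mug108 were 811 in opi10- and 1160.4 in opi10+, above those at 1 h, whereas those of mug153 were 86.7 in opi10- and 84.8 in opi10+, below them. The meiosis gene mei2, which rose in the first hour, stood at 3380.3 in opi10- and 3251 in opi10+ at 3 h, against 1399 in opi10- and 967 in opi10+ before heat. The newly raised genes los1 and urb2 had signals at 3 h of 1402 and 853 in opi10- and 1321 and 1139 in opi10+, against 1498 and 1125 in opi10- and 1458 and 1052 in opi10+ before heat. The zinc transporter gene zrt1 had 4036 in opi10- and 4429 in opi10+ at 3 h, between its signals before heat and at 1 h. These values were picked after they were seen, and no test was run on them.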
